A study of Mus musculus with 66 samples.

Results

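The genes described here encode the muscle isozymes of enolase (Eno3), phosphoglycerate mutase (Pgam2), phosphofructokinase (Pfkm) and glycogen phosphorylase (Pygm), and the isozymes of the same enzymes that other tissues use (Eno1, Pgam1, Pfkl, Pfkp, Pygb and Pygl). They were chosen by name, and all 10 were found among the 22489 genes of the mRNA-Seq table. The cells were C2C12, a mouse myoblast line that fuses into myotubes when serum is withdrawn. WT cells carried no transgene, and 9 Tet-On C2C12 lines expressed an H3 histone tagged with GFP at its N-terminus from a doxycycline-inducible promoter (the H3.1/H3.2-type proteins H3t, H3.1 and H3.2, and the H3.3-type proteins H3mm16, H3mm13, H3mm12, H3mm11, H3mm7 and H3.3). These lines had been selected with doxycycline and G418 and sorted for GFP, and the methods speak of cells or stable clones, so a line may be 1 clone. Growth cells were subconfluent cultures in 20% fetal bovine serum. For the differentiated state, confluent cultures spent 48 h in 2% horse serum. Each line had 1 library in each state, which makes 20 libraries, and the lines served as the replicates of a state. The p-values below therefore measure the spread between lines that also differ in their transgene, and not between repeat cultures of 1 line.

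Glycogen phosphorylase releases glucose 1-phosphate from glycogen, phosphofructokinase commits sugar phosphates to glycolysis, and phosphoglycerate mutase and enolase carry out late steps of the pathway just before pyruvate is formed. Mammals encode each of these enzymes in several genes, and skeletal muscle is known for switching during its development from the widely expressed forms to the muscle forms. Inherited loss of PYGM, PFKM, PGAM2 or ENO3 causes muscle glycogen storage diseases in humans.

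In the mm9 annotation the muscle genes lie at chr11:70470704-70476015 on the + strand (Eno3), chr11:5701643-5703736 on the - strand (Pgam2), chr15:97923020-97962878 on the + strand (Pfkm) and chr19:6384399-6398459 on the + strand (Pygm). The other genes lie at chr4:149610830-149622988 (Eno1, +), chr19:41986361-41993154 (Pgam1, +), chr10:77449692-77472828 (Pfkl, -), chr13:6579014-6648023 (Pfkp, -), chr2:150612471-150657494 (Pygb, +) and chr12:71291798-71332475 (Pygl, -), and all 10 are annotated as protein coding. The coding sequences of the isozymes have diverged far enough for reads to tell them apart. Eno3 shared 77.8% of aligned coding bases with Eno1, and Pgam2 shared 76.5% with Pgam1. Pfkm shared 71.6% with Pfkl and 69.8% with Pfkp, and Pygm shared 78.2% with Pygb and 76.1% with Pygl. None of the 31-base words of the Eno3, Pgam2 or Pfkm transcript occurred anywhere else in the genome, and 1.34% of those of Pygm did. Eno1 and Pgam1 were different in this respect, since 77.2% of the words of Eno1 and 94.1% of those of Pgam1 occurred at another place as well.

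Promoter windows of 300 bases, from 250 bases before to 50 after the annotated start, were taken from RefSeq (GRCm38.p6) and matched all 10 genes by symbol, with 3 windows for Eno1, 4 for Pfkm and 1 for each of the others. The windows of Eno3, Pgam2 and Pygm are shown because these are the muscle forms with a single start, and that of Pgam1 because it is the counterpart of the gene that rose from a low level while Pgam1 did not. Capitals mark the letters of the E-box (CANNTG, the motif bound by MyoD and myogenin) and of the MEF2 box (bound by the MEF2 factors of muscle), each searched on both strands. The windows lie at chr11:70656926-70657225 (Eno3, + strand), chr11:5803747-5804046 (Pgam2, - strand), chr19:6384158-6384457 (Pygm, + strand) and chr19:41911621-41911920 (Pgam1, + strand), and each is written 5′ to 3′ along its gene.
Eno3: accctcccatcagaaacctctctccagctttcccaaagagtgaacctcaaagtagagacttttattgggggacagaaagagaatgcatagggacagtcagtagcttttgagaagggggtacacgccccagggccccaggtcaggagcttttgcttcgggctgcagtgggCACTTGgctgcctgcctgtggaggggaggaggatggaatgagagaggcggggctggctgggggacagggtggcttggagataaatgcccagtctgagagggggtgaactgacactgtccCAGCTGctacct
Pgam2: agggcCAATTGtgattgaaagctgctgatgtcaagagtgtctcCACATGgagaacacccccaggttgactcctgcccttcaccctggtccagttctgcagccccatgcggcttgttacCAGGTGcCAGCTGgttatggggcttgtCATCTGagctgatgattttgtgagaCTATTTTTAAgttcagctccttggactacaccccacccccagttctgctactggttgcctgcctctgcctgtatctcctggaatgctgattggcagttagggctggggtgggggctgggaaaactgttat
Pygm: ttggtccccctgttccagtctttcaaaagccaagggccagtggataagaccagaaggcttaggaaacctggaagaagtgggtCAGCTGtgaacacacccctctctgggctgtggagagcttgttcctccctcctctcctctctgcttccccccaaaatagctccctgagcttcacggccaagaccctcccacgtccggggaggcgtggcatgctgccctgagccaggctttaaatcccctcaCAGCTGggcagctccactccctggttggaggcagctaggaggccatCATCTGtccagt
Pgam1: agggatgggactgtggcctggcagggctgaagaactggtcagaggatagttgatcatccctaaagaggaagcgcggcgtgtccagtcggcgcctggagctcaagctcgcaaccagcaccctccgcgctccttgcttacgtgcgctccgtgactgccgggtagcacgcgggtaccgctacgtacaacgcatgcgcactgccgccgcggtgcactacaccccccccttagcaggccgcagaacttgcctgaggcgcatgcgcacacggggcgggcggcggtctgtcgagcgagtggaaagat

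The Pgam2 window held 5 E-boxes and 1 MEF2 box with the letters CTATTTTTAA, which began 80 bases before the start. The windows of Pygm and Eno3 held 3 and 2 E-boxes and no MEF2 box. The 4 windows of Pfkm held 3, 0, 1 and 1 E-boxes and no MEF2 box. Among the other isozymes, the window of Pfkl held 3 E-boxes and 1 of the 3 windows of Eno1 held 2, as many as Pygm and Eno3, while those of Pgam1, Pfkp, Pygb and Pygl held none. An E-box is a short motif and was found in 72.3% of the 32851 promoter windows of all genes, whereas a MEF2 box was found in 3.19%. The GC box (GGGCGG), common at widely expressed genes, was absent from the windows of Eno3, Pgam2, Pfkm and Pygm. It occurred 2 times in the Pgam1 window, 4 times in that of Pfkp, 3 times in that of Pfkl, 4 times in that of Pygl and 3 times in 2 of the 3 windows of Eno1, but not in that of Pygb, and it was found in 35.7% of all windows. The hypoxia core (ACGTG, which an E-box with the letters CACGTG would contain) was found once in the windows of Pygm, Pgam1, Pygb and Pygl and in 2 of the 4 windows of Pfkm, and in 19.6% of all windows. The CArG box was found in none of the windows of these genes and in 1.63% of all.

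Values are FPKM, that is, sequenced fragments scaled both to the length of the gene's exons and to the size of the library, so that levels of different genes can be set side by side within a library. The read numbers of the libraries are unknown, so no counting interval can be given. The FPKM of all genes summed to 583613 to 894105 in the 18 GFP-H3 libraries and to 409319 and 465247 in the WT libraries. The 7 markers of skeletal muscle differentiation (Myog, Ckm, Acta1, Tnnc2, Mylpf, Myh3 and Des) together had 197 to 675 FPKM in growth and 4540 to 20452 FPKM in differentiated cells, and the 4 markers of dividing cells together had 342 to 609 FPKM in growth and 3.73 to 75.4 FPKM in differentiated cells. The 3 myoblast markers together had 40.0 to 137 FPKM in growth and 76.8 to 135 FPKM in differentiated cells, although Pax7 stayed below 1 FPKM throughout. Summed markers of hepatocytes, blood and adipocytes stayed below 1 FPKM, and those of brain reached 1.13 FPKM, nearly all of it Mbp. In these bulk samples, a smaller share of differentiated cells and less mRNA per cell cannot be told apart.

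The first comparison asked how these genes differed between growth and differentiated cells. Pgam2 and Pygm rose from low levels in each of the 10 lines, Pfkm rose in 9 of 10, and Pygb fell in 10 of 10. Eno3, the muscle enolase, was already among the most abundant of these mRNAs in growth and did not rise. Tested with limma on log2(FPKM + 1) across all genes, with 10 libraries in each state, Pgam2, Pfkm and Pygm were called higher (3 of the 10 genes, against 30.5% of the 10954 genes tested) and Pygb was called lower (1 of the 10, against 28.1% of all genes) at an adjusted p below 0.05. Of the 10 genes, 9 passed the filter of a mean of 1 FPKM over the libraries. Pygm passed it only through the differentiated libraries and so had to differ, and Pygl did not pass.

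**Figure D1:**
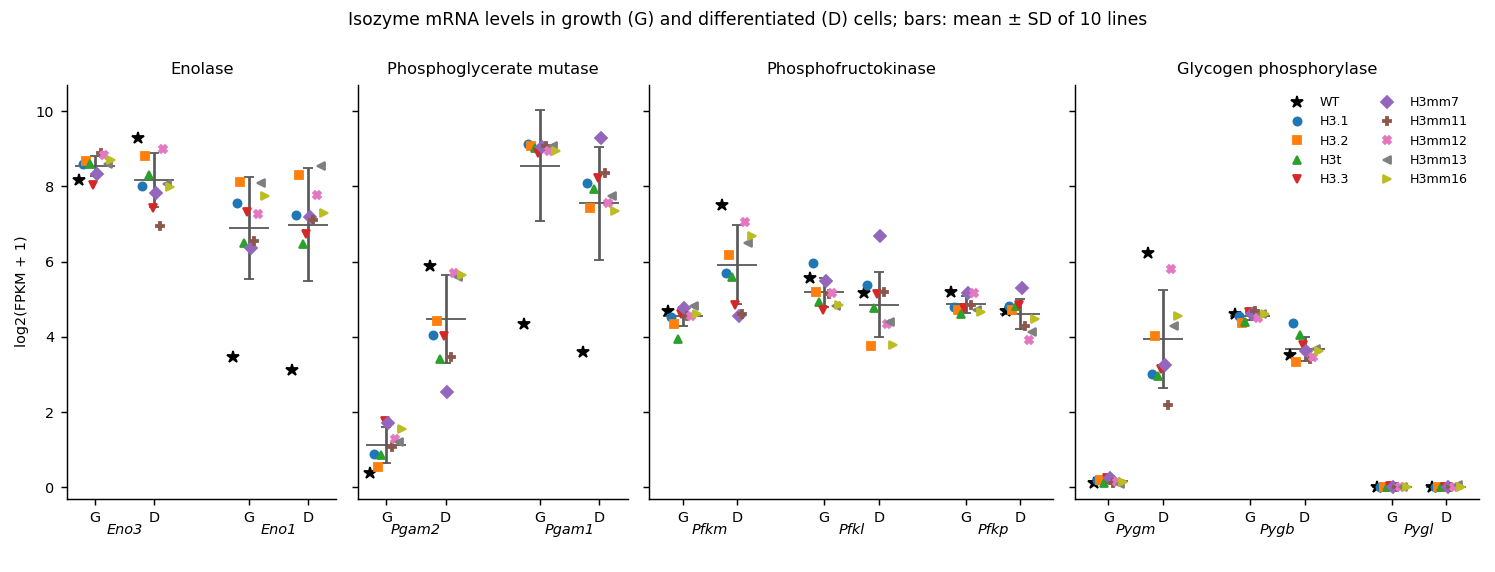
Each point is the log2(FPKM + 1) of 1 gene in 1 library, in growth (G) and differentiated (D) cells of WT (stars) and the 9 GFP-H3 lines, and the bars are the mean ± SD of 10 lines. Pgam2, Pygm and Pygb do not overlap between the states, Pfkm stays within or next to its growth range in 3 lines, and the WT values of Eno1 and Pgam1 lie far below those of the other lines.

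Pgam2, the muscle form of phosphoglycerate mutase, had 0.306 FPKM in WT growth cells and 0.453 to 2.42 FPKM in growth cells of the GFP-H3 lines (median of the 10 lines 1.19). In differentiated cells it had 58.2 FPKM in WT, 50.5 in H3mm12, 49.3 in H3mm16, 47.1 in H3mm13, 20.3 in H3.2, 15.5 in H3.1, 15.3 in H3.3, 9.93 in H3mm11, 9.55 in H3t and 4.78 in H3mm7. The states did not overlap, and the differentiated lines fell into 4 with over 47 FPKM and 6 with no more than 20.3. Such a gap was not particular to Pgam2, since Pygm, Pygb and related genes such as Stbd1, Gys1, Gyg and Pgm1 did not overlap either. The share of all genes without overlap was not counted. The difference was 3.34 on the log2(FPKM + 1) scale (SE 0.37, adjusted p = 1.5e-07, limma), and single lines ranged from 0.83 in H3mm7 to 5.50 in WT.

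Pgam1, the widely expressed mutase that acts in most tissues, had 476 to 559 FPKM in growth cells of the 9 GFP-H3 lines, with little spread between them, and 160 to 328 FPKM in differentiated cells of all of them but H3mm7, which had 619. In WT it had 19.3 FPKM in growth and 11 in differentiated cells, far below every other line. Differentiated cells had less Pgam1 in 9 of 10 lines, by 1.00 on the log2 scale on average (SE 0.62), but this was not called (adjusted p = 0.177). Without WT, Pgam1 fell by 1.03 (SE 0.19, adjusted p = 1.1e-04, limma), where 29.7% of genes were called lower. With the cell line as a block, pairing the libraries of a line, the fall of 1.00 was called as well (adjusted p = 1.5e-04, against 33.3% of genes called lower).

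Pygm encodes muscle glycogen phosphorylase, the enzyme missing in McArdle disease. It had between 0.0557 FPKM (H3mm13) and 0.197 FPKM (H3mm7) in growth. In differentiated cells it had 74.5 FPKM in WT, 55.1 in H3mm12, 22.5 in H3mm16, 18.6 in H3mm13, 15.2 in H3.2, 8.53 in H3mm7, 7.79 in H3.3, 7.05 in H3.1, 6.74 in H3t and 3.58 in H3mm11. The states did not overlap, and the lowest differentiated library was far above the highest growth library. The difference was 3.78 on the log2(FPKM + 1) scale (SE 0.39), which understates a change from values this far below 1 FPKM. Pygm passed the filter only through its differentiated libraries, so its p-value is no support for the rise.

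Pygb, the brain form of the phosphorylase, which also serves fetal tissues, moved the other way. It had 19.7 to 24.6 FPKM in growth and 8.98 (H3.2) to 19.5 FPKM (H3.1) in differentiated cells, with a median of 11.3. The states did not overlap, although the value of H3.1 in differentiated cells lay just under the lowest growth value, that of H3.2. Pygb fell by 0.88 on the log2 scale (SE 0.11, adjusted p = 4.0e-07), and by 0.21 in H3.1 to 1.26 in H3mm11 within lines. Pygl, the liver form, was listed at 0 in 18 of the 20 libraries and had 0.0291 FPKM in growth cells of H3.3 and 0.0370 in differentiated cells of H3mm13. Gene-level 0 values in an FPKM table may be failed estimates, and whether these were was not tested.

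Pfkm, the muscle phosphofructokinase subunit, was present before differentiation. In growth it had 14.5 FPKM in H3t and 19.4 to 27.1 in the other lines. In differentiated cells it reached 182 FPKM in WT, 133 in H3mm12, 101 in H3mm16, 89.8 in H3mm13, 70.9 in H3.2, 51.0 in H3.1 and 46.8 in H3t, but had only 27.5 in H3.3, 23.2 in H3mm11 and 22.3 in H3mm7. These 3 lines lay within or next to the growth range, and in H3mm7 the value was lower than in growth. Over the 10 lines the difference was 1.37 (SE 0.32, adjusted p = 8.6e-04). The summed muscle markers of these 3 lines in differentiated cells were 6219, 4540 and 6118 FPKM, and those of H3.1 and H3t, in which Pfkm was higher by 1.17 and 1.62 on the log2 scale, were 4750 and 4827 FPKM.

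Pfkl and Pfkp, the liver and platelet forms of the subunit, were not called. Pfkl had 25.4 to 61.8 FPKM in growth and 12.4 to 101 FPKM in differentiated cells (difference -0.32, SE 0.28, adjusted p = 0.339), and it was lower in 7 of 10 lines. H3mm7 stood at the top of this range, with 43.5 FPKM in growth and 101 in differentiated cells, and the next line, H3.1, had 40.8 in differentiated cells. Pfkp had 23.6 to 35.7 FPKM in growth and 14.2 to 38.6 FPKM in differentiated cells, highest again in H3mm7 (difference -0.27, SE 0.14, adjusted p = 0.115). Without the H3mm7 line the difference of Pfkp was -0.31 and was called (adjusted p = 0.0461, against 28.3% of genes called lower). The growth and differentiated ranges of both genes overlapped broadly.

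Eno3, the muscle enolase, had 261 (H3.3) to 468 FPKM (H3mm11) in growth, of the same order as its level after differentiation, which ran from 122 FPKM in H3mm11 through 171 in H3.3, 223 in H3mm7, 251 in H3mm16, 254 in H3.1, 265 in H3mm13, 312 in H3t, 442 in H3.2 and 512 in H3mm12 to 623 in WT. Differentiated cells had less Eno3 in 7 of 10 lines, and WT, H3.2 and H3mm12 were the 3 in which it was higher. The states overlapped and the difference was -0.38 on the log2 scale (SE 0.23, adjusted p = 0.169). In WT it was higher by 1.11. Without WT, Eno3 fell by 0.55 (adjusted p = 0.0328), while with the cell line as a block and WT included it was not called (adjusted p = 0.142).

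Eno1, the widely expressed enolase, had 81.1 to 274 FPKM in growth cells of the GFP-H3 lines and 87.0 to 368 FPKM in their differentiated cells, against 10.1 and 7.69 FPKM in WT. It was higher in 5 lines and lower in 5, with a difference of 0.08 (SE 0.60, adjusted p = 0.919). These values do not stand alone, because the table also lists Gm5506, for which RefSeq gives the synonym Eno1b. The coding sequence of Gm5506 differed from that of Eno1 at 8 of 1305 bases, and 71.2% of the 31-base words of the Eno1 transcript occurred in the Gm5506 transcript too. Gm5506 held 61.2% to 95.3% of the sum of both in growth and 22.4% to 95.9% in differentiated cells, lowest in H3.2 and highest in WT in both states, so how the reads were divided between the copies is uncertain. Eno1 and Gm5506 together had 707 to 1171 FPKM in growth and 403 to 1037 FPKM in differentiated cells of the GFP-H3 lines, and 215 and 189 FPKM in WT. Taken as 1 feature, the sum was lower by 0.60 after differentiation (SE 0.28). This was not called over all 10 lines (adjusted p = 0.0693), but it was without WT (a fall of 0.65, adjusted p = 0.00125) and with the cell line as a block (adjusted p = 2.1e-04). This sum was added after the values of Eno1 had been seen.

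**Figure D2:**
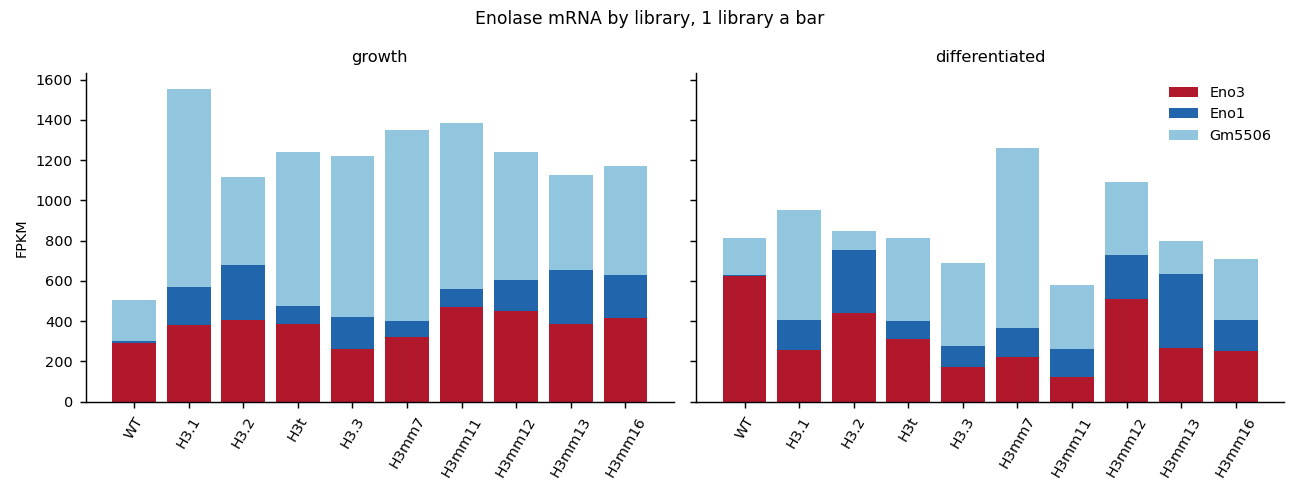
Stacked bars give the FPKM of Eno3, Eno1 and Gm5506 in each library, growth on the left and differentiated on the right, on a linear axis from 0. Eno3 has 58.9% to 96.6% of the sum of Eno3 and Eno1 in growth, but 21.3% to 57.3% once Gm5506 is counted.

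The second comparison asked, within each library, how far a muscle isozyme stood above or below another of its family. The ratio log2((muscle + 1)/(other + 1)) was tested over 10 lines by a two-sided exact sign-flip permutation test, which cannot go below p = 0.00195, and adjusted over 18 tests. In the phosphoglycerate mutase pair, Pgam2 stood below Pgam1 in all 10 lines in growth (mean log2 ratio -7.43 ± 1.30 SD). In differentiated cells it stood below Pgam1 in 9 of 10 (-3.08 ± 2.46, adjusted p = 0.0146 by the exact test) and above it only in WT. The ratio rose in 10 of 10 lines, by 4.34 ± 1.80 (adjusted p = 0.00391 by the exact test). As a share of the pair's summed FPKM, Pgam2 went from 0.0841% to 1.56% in growth to between 0.767% (H3mm7) and 84.1% (WT) in differentiated cells, with a median of 8.02%. Pgam1 was low in WT in both states, so the WT share depends on that low value too. In differentiated cells H3mm12, H3mm13 and H3mm16 had Pgam2 near that of WT (47.1 to 50.5 against 58.2 FPKM), but shares of 18.2% to 23.5%.

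In the phosphorylase family, Pygm stood below Pygb in growth in all 10 lines (-4.40 ± 0.12), and in differentiated cells the lines went both ways, with Pygm above Pygb in 5 and below it in 5, from -1.35 in H3.1 to 2.72 in WT (mean 0.26 ± 1.46, adjusted p = 0.578 by the exact test). The ratio rose in 10 of 10 lines, by 4.66 ± 1.47 (adjusted p = 0.00391, exact). Pygm had at most 0.197 FPKM in growth. With 1 FPKM added, the growth ratio and its small spread therefore mostly follow Pygb, and the rise is understated. Pygm was the larger part in WT, H3mm12, H3mm16, H3mm13 and H3.2, and its share of the family went from at most 0.835% in growth to between 26.6% (H3.1) and 87.7% (WT). Pygm also stood above Pygl in every line in both states, by 0.16 ± 0.05 in growth and 3.94 ± 1.30 in differentiated cells. With Pygl listed at 0 nearly throughout, however, this ratio is the level of Pygm itself. Where Pygl is at 0 the ratio cannot be negative, so its exact test in either state is no support for a difference. The tests of this ratio were still among those over which the p-values of the other ratios were adjusted.

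In the phosphofructokinase family, Pfkm stood slightly below Pfkl in growth in all 10 lines (-0.64 ± 0.43, adjusted p = 0.00391, exact) and below Pfkp in 9 of 10 (-0.32 ± 0.24, adjusted p = 0.00959, exact). After differentiation it stood above Pfkp in 9 of 10 lines (1.32 ± 1.30, adjusted p = 0.0176, exact). It stood above Pfkl in 7 of 10 (1.06 ± 1.71), which did not pass (adjusted p = 0.0923, exact), with H3.3, H3mm7 and H3mm11 on the other side, and passed without H3mm7 (1.41, adjusted p = 0.0308, exact). The ratio to Pfkl rose by 1.70 ± 1.70 (7 of 10 lines, adjusted p = 0.0188, exact) and that to Pfkp by 1.64 ± 1.32 (9 of 10 lines, adjusted p = 0.00959, exact). In H3mm7 both ratios fell, by 1.43 and 0.38, so that Pfkm held 13.7% of the family there, against 79.9% in H3mm12.

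In the enolase pair, Eno3 stood above Eno1 in all 10 lines in growth (1.64 ± 1.26, adjusted p = 0.00391, exact) and in 8 of 10 in differentiated cells (1.18 ± 1.86, adjusted p = 0.0162, exact). The change was -0.46 ± 1.02 (9 of 10 lines lower, adjusted p = 0.184, exact). Without WT it was -0.67 ± 0.81, lower in 9 of 9 lines (adjusted p = 0.00639, exact). The direction of the enolase ratio depended on Gm5506. Against the sum of Eno1 and Gm5506, Eno3 stood below in 9 of 10 lines in growth (-1.03 ± 0.65, adjusted p = 0.00781, exact) and in 8 of 10 in differentiated cells (-0.81 ± 1.15, adjusted p = 0.0703, exact), and the change was 0.22 ± 0.66 (adjusted p = 0.335, exact). Under neither count was a rise of the muscle form called over the lines. On Eno1, Eno3 gained in WT only, by 1.46. On the sum it gained in 6 of 10 lines, most in WT (by 1.29), and lost in 4.

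**Figure D3:**
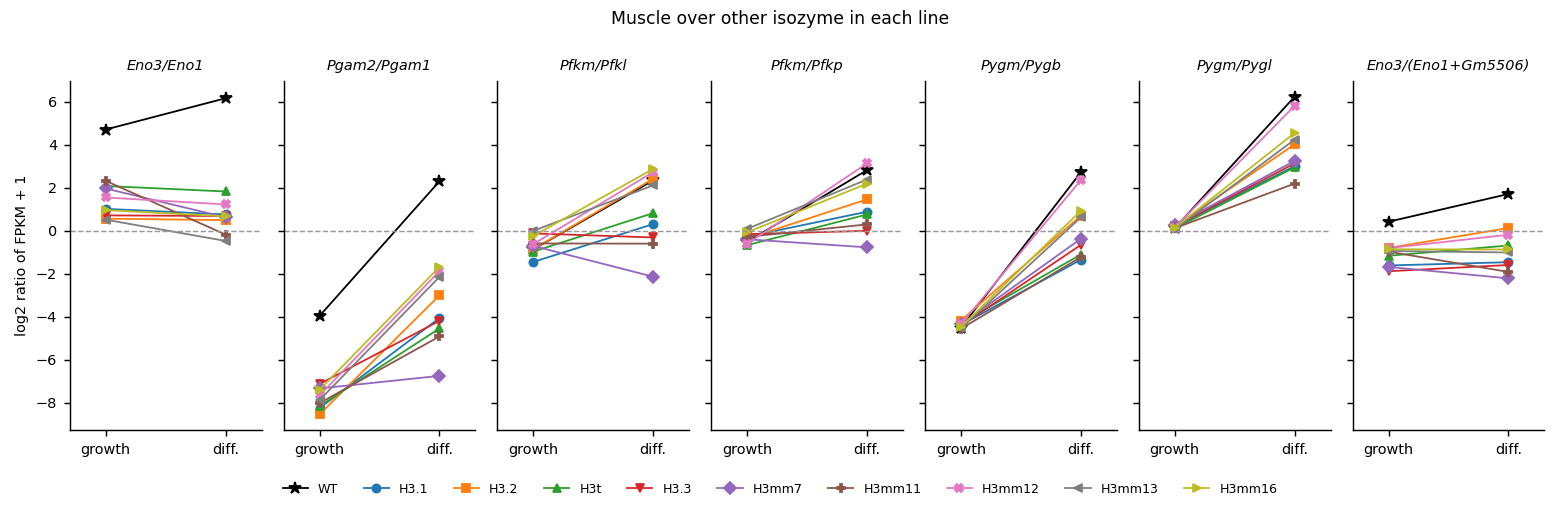
Each line joins the log2 ratio of FPKM + 1 of a muscle isozyme over another isozyme in growth and differentiated cells of 1 cell line, and the dashed line marks equal levels. Pgam2/Pgam1 and Pygm/Pygb rise in 10 of 10 lines, the Pfkm ratios fall in H3mm7, and Eno3 changes from above Eno1 to below it in most lines when Gm5506 is added to Eno1.

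The order of the levels changed accordingly. By median FPKM over the 10 lines, growth cells had Pgam1 (519), Eno3 (385), Eno1 (156), Pfkl (34.7), Pfkp (26.4), Pygb (23.4), Pfkm (22.9), Pgam2 (1.19), Pygm (0.107) and Pygl (listed at 0). With Gm5506 added, the Eno1 sum (823) came first and stood above Eno3. The ranges of Pfkm and Pgam2, of Pgam2 and Pygm and of Pygm and Pygl did not overlap, but all neighbours above them did, and Pygb was above Pfkm in only 6 of 10 lines. In differentiated cells the order was Eno3 (259), Pgam1 (228), Eno1 (147), Pfkm (61.0), Pfkl (30.1), Pfkp (25.0), Pgam2 (17.9), Pygm (11.9), Pygb (11.3) and Pygl (listed at 0), and apart from Pygb over Pygl all neighbours overlapped. The sum of Eno1 and Gm5506 (508) again came first.

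The muscle isozymes that rose were spread over the lines in a like way. In differentiated cells WT, H3mm12, H3mm13 and H3mm16 had the 4 highest values of Pgam2, of Pfkm and of Pygm. The same 4 lines had the highest summed muscle markers, with 16563, 20452, 15085 and 15470 FPKM, while the other 6 had 4540 to 10766 FPKM. The highest of these 6 was H3.2, which came next for Pgam2, Pfkm and Pygm. The part of the marker level in the isozyme values was not tested.

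The third comparison set the 6 lines with an H3.3-type protein against the 3 with an H3.1/H3.2-type protein, without WT. No gene of the 10 was called in growth, where 0.247% of 10931 genes were, nor in differentiated cells, where 2.5% were. No gene at all (0%) was called for the interaction of type and state by limma. In that fit 999 genes (9.14%) had an unadjusted p below 0.05, and Pygb, the single one of the 10, is near that share. In growth the differences, H3.3-type minus H3.1/H3.2-type, ran from -0.34 for Pfkl (SE 0.47) to 0.67 for Pgam2 (SE 0.54). In differentiated cells they ran from -0.49 for Eno3 (SE 0.32, adjusted p = 0.402) to 0.55 for Pygm (SE 0.51, adjusted p = 0.591), so that differences of over 1 on the log2 scale would lie within 2 SE of several of these estimates and were not resolved with 3 lines in a group.

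Among these 10 genes, the lowest p of the type comparison belonged to Pygb. It had 21.5 to 24.6 FPKM in growth in the H3.3-type lines and 19.7 to 22.7 in the others, and 9.71 to 12.8 FPKM against 8.98 to 19.5 in differentiated cells. Its fall was larger in the H3.3-type lines by 0.48 (SE 0.22, unadjusted p = 0.0485 and adjusted p = 0.544 in limma's fit across all genes, and adjusted p = 0.250 with the cell line as a block). In differentiated cells the difference of -0.31 (SE 0.16) was not called either (adjusted p = 0.283), but without H3.2, which had the lowest Pygb value, it was -0.61 and was called (adjusted p = 0.0107), as were 7.06% of all genes in that fit. The H3.3-type lines themselves fell far apart for the muscle isozymes: Pfkm had 22.3 to 27.5 FPKM in H3.3, H3mm7 and H3mm11 and 89.8 to 133 in H3mm12, H3mm13 and H3mm16. Pgam2 likewise had 4.78 to 15.3 FPKM in the former and 47.1 to 50.5 in the latter, and Pygm 3.58 to 8.53 and 18.6 to 55.1. These 2 sets of lines were separated by their expression, so no test was made between them.

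WT stood apart for some of these genes and not for others. In growth, the median of the GFP-H3 lines was 27.1 times the WT value for Pgam1 and 15.7 times for Eno1, but between 0.73 and 1.34 times for Eno3, Pfkm, Pfkl, Pfkp, Pygm and Pygb, and 4.25 times for Pgam2, whose values were near 1 FPKM or below. In differentiated cells it was 22.2 times for Pgam1 and 19.4 times for Eno1, and between 0.743 and 1.08 times for Pfkl, Pfkp and Pygb. For the muscle forms WT then had the highest value of each, but only 1.15 (Pgam2) to 1.37 times (Pfkm) that of the highest GFP-H3 line. The GFP-H3 median was 0.115 times the WT value for Pygm, 0.265 times for Pgam2, 0.280 times for Pfkm and 0.408 times for Eno3. Of the other enzymes of glycolysis, Gapdh and Pgk1 were also far lower in WT. Gapdh, one of the most abundant mRNAs of most cells, had 783 to 2094 FPKM in the GFP-H3 lines over both states, yet 0.361 FPKM in WT growth and 0.263 FPKM in WT differentiated cells. Pgk1 had 43.5 and 28.2 FPKM in WT and 348 to 975 FPKM in the other lines.

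Many of the genes that were low in WT have transcripts that share much of their sequence with other places in the genome. Words of 31 bases found again at another locus made up 94.1% for Pgam1, 94.0% for Pgk1, 91.7% for Gm5506, 85.8% for Gapdh and 77.2% for Eno1. The share was 38.9% to 52.8% for Tpi1, Aldoa, Gpi1, Ldhb and Ldha, for which the GFP-H3 median was 0.832 to 1.70 times the WT value over both states, and at most 7.01% for the other 8 of the 10 genes. Pgam1, Pgk1, Gapdh and Eno1 were below every GFP-H3 line in WT in both states, as was Gpi1 by a smaller ratio. So was Pkm, with 842 FPKM in growth and 414 in differentiated cells, against at least 1112 and 542 in the GFP-H3 lines. The shared sequence of Pkm was not measured. Gm5506 was so only in growth, and in differentiated WT cells its 182 FPKM lay above the 90.4 FPKM of H3.2. Pgam2, with 0% of its words elsewhere, was also lowest in WT in growth, with 0.306 FPKM against at least 0.453 FPKM in the GFP-H3 lines. The part of shared sequence in the low WT values was not tested. The submitters' notes list the same mapping and quantification tools for WT as for the other libraries.

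**Figure D4:**
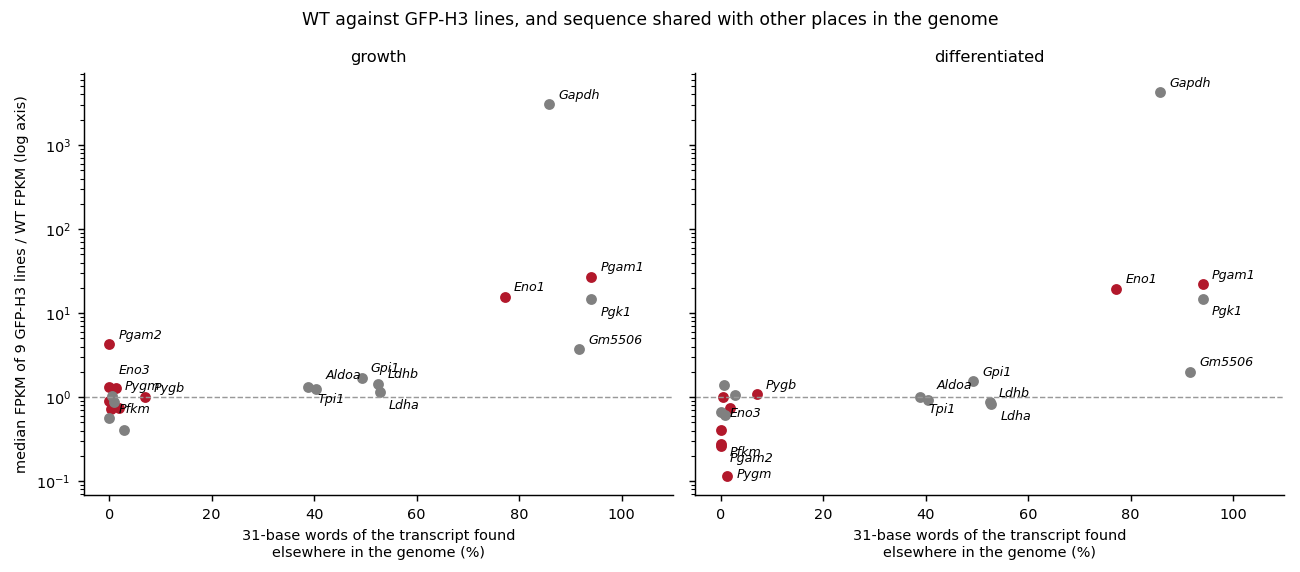
Each point is a gene, with the share of its transcript's 31-base words found elsewhere in mm9 on the x axis and the median FPKM of the 9 GFP-H3 lines divided by the WT FPKM on a logarithmic y axis, in growth (left) and differentiated cells (right). Red points are the 9 described isozymes with a WT value above 0, and grey points Gm5506 and other glycolytic enzymes. The genes at 77.2% or more lie above 1 in both states, up to Gapdh.

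The rest of the pathway changed in part. Of 23 other genes of glycolysis and its end, 12 were tested, and 4 were higher, 4 lower and 4 not called after differentiation, with a median difference of 0.08 against 0.04 for all genes tested. Of all genes 30.5% were higher and 28.1% lower, and without WT 5 of the 12 were higher and 5 lower. Among them was Eno2, the neuronal enolase, which rose from 2.21 to 9.58 FPKM in growth to 7.70 to 17.7 FPKM in differentiated cells (1.23, SE 0.19, adjusted p = 1.3e-05), in 10 of 10 lines. Ldhb, the heart subunit of lactate dehydrogenase, rose by 0.89 (adjusted p = 0.0203, but 0.0509 with a pseudocount of 0.01) and Ldha, the muscle subunit, fell by 0.87 (adjusted p = 4.7e-04). Pkm, the pyruvate kinase gene of muscle and most other tissues, fell by 1.08 (adjusted p = 7.2e-06), from 842 to 1689 FPKM in growth to 414 to 1070 in differentiated cells. Hk1, a widely expressed hexokinase, fell by 0.79 (adjusted p = 6.3e-05). Hk2, another hexokinase, rose by 0.64 (adjusted p = 0.00785) and was higher in 8 of 10 lines. Aldoa, the muscle aldolase, rose by 0.69 (adjusted p = 2.6e-04), but after quantile normalization the difference was 0.40 and was not called (adjusted p = 0.0929).

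On the side of glycogen, 14 of 15 genes of its breakdown were tested, of which 5 were higher and 4 lower (against 30.5% and 28.1% of all genes), with a median of 0.14. Phkb, a regulatory subunit of the kinase that activates phosphorylase, rose by 0.70 (adjusted p = 1.6e-04) and Gaa, the lysosomal glucosidase, by 0.98 (adjusted p = 3.3e-04). Of the other kinase genes, Phkg2 rose by 0.69 (adjusted p = 4.7e-04). Phka1 (0.15, adjusted p = 0.310), Phka2 (0.38, adjusted p = 0.0810) and Phkg1 (-0.19, adjusted p = 0.524) were not called. Pgm5, a muscle relative of phosphoglucomutase without known enzyme activity, had at most 0.0155 FPKM in growth and 0.177 to 14.9 FPKM in differentiated cells, so it too passed the filter only through the latter. Of the others, Pgm1, listed as a phosphoglucomutase, fell by 0.93 (adjusted p = 8.5e-08), and Calm2 and Calm3, calmodulin genes whose protein is a subunit of phosphorylase kinase, fell by 0.90 and 0.69 (adjusted p = 2.1e-06 and 9.4e-05). Of 16 genes of glycogen synthesis and targeting, 9 were tested, 5 were higher and 0 lower (5 against the 30.5% given above for all genes), with a median of 0.25. Stbd1, which binds glycogen, rose by 2.01 (SE 0.23, adjusted p = 1.3e-07), from 24.3 to 47.1 FPKM in growth to 56.4 to 234 FPKM in differentiated cells. Gys1, the glycogen synthase of muscle, rose by 0.96 (adjusted p = 3.1e-05) and Gyg, which primes glycogen, by 0.95 (adjusted p = 9.2e-07).

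Among 8 regulators of phosphofructokinase, 5 were tested, and 3 were lower and 0 higher (4 lower without WT), with a median of -0.68, where 28.1% of all genes were lower. Pfkfb1, Pfkfb4 and Pfkfb3, which make or degrade the activator fructose 2,6-bisphosphate, fell by 1.04, 0.81 and 0.68 (adjusted p = 7.3e-08, 2.4e-05 and 5.8e-04). Of 9 glucose and lactate transporters, 4 were tested. Slc2a8 rose by 1.31 (adjusted p = 1.4e-08) and Slc2a1, the basal glucose transporter, fell by 0.80 (adjusted p = 0.0103). Slc2a4, the insulin-responsive transporter of muscle, stayed below the filter, with at most 0.129 FPKM in growth and at most 1.42 FPKM in differentiated cells, the latter in WT. The adjusted p-values of this and the preceding 2 paragraphs come from the same limma fit.

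**Figure D5:**
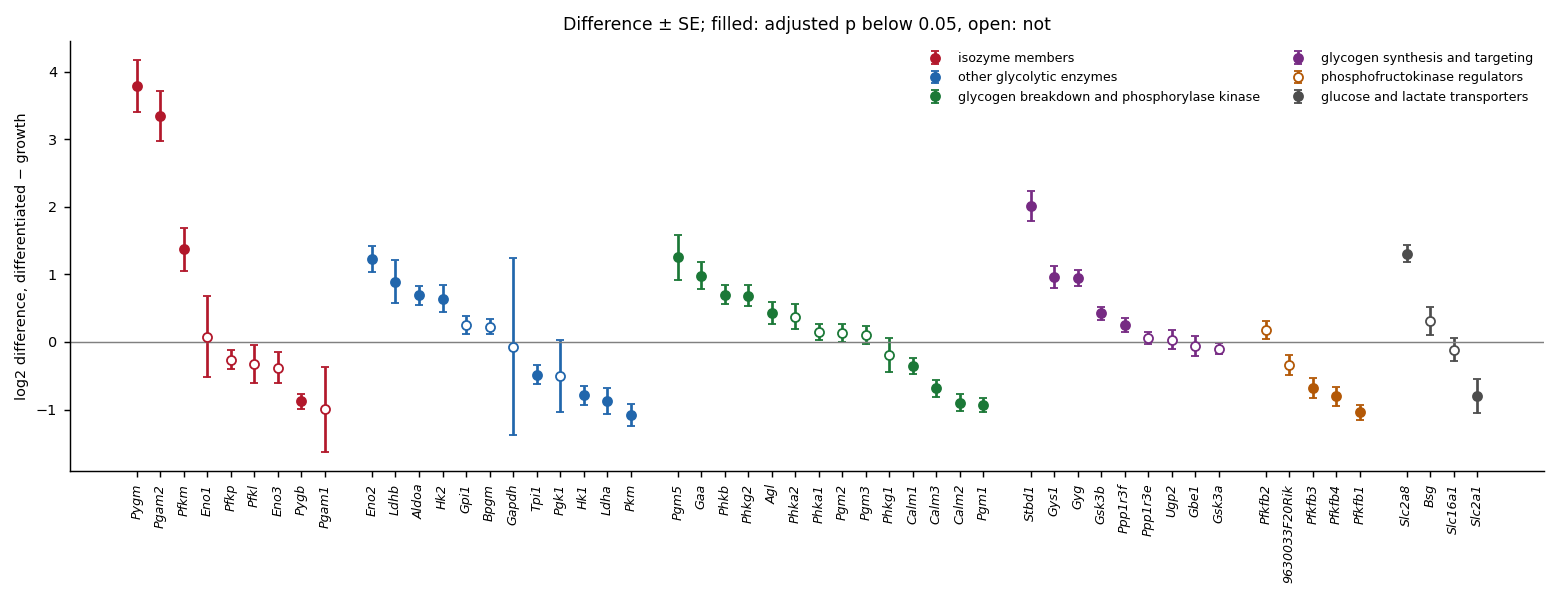
Points give the difference between differentiated and growth cells on the log2(FPKM + 1) scale with its SE for the tested isozymes and 5 lists of related genes, filled where the adjusted p was below 0.05. The largest differences of the plot are those of Pygm (3.78), Pgam2 (3.34) and Stbd1 (2.01), and the wide error bars of Eno1, Pgam1, Gapdh and Pgk1 belong to genes that were low in WT.

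Genes with the most similar pattern were found by Pearson's r of log2(FPKM + 1) over the 20 libraries, which share the step from growth to differentiation, so r is high for many genes and is given without a p. Pygm was closest to Arpp21 (r = 0.995), Trim72 (0.993) and Ctxn3 (0.993), and Pfkm to Stim1 (0.976), Pkig (0.971) and P2rx5 (0.969). Myom1 (0.981) and Zfp36l1 (0.981) were among the 3 genes closest to Pgam2. Eno3 had weaker matches in Lmnb2 (0.859), Hn1 (0.849) and Schip1 (0.834), and its r was -0.10 with Pgam2, 0.26 with Pfkm and -0.0094 with Pygm. After the mean of each state was subtracted, which leaves the spread between lines, the closest genes were Abra (0.985), Gm5480 (0.984) and Casq2 (0.974) for Pygm, Srl (0.970), Stim1 (0.959) and P2rx5 (0.958) for Pfkm, and Rrm2 (0.886), Lrrc39 (0.882) and Pdlim2 (0.878) for Eno3. Sik1 (0.921) and Zfp36l1 (0.913) were then among the 3 closest to Pgam2. On this scale the r of Eno3 was 0.485 with Pgam2, 0.737 with Pfkm and 0.775 with Pygm, and 0.329, 0.663 and 0.687 over the 18 GFP-H3 libraries. Of the genes closest to Pygm, Pgam2 and Pfkm, Trim72, Myom1, Casq2 and Srl encode proteins of the sarcolemma, sarcomere or sarcoplasmic reticulum. The other matches, including those of Eno3, were not sorted by function.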

How the data were processed

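Total RNA of growth and differentiated C2C12 cells was sequenced as mRNA-Seq. For the GFP-H3 lines the authors aligned reads to the mm9 build using TopHat 2.0.8, and the deposited FPKM values came from cuffdiff (Cufflinks 2.0.1, default parameters), with 1 column for each library. The submitters' notes list the same tools and build for WT, the gene annotation is not given in the sources used here, and read numbers are unknown. The column labelled H3mmT was taken as H3t, the only line left without a column. The remaining experiments of the series were not used here, and the 3′-seq tables hold no row of these genes.

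Genes with a mean of at least 1 FPKM over the libraries were tested with limma 3.58.1 (R 4.3.3, trend and robust settings) on log2(FPKM + 1) and counted as called where p, adjusted over all genes tested by Benjamini-Hochberg, was below 0.05, in each direction. Growth was compared with differentiated cells (10 libraries each), and, within either state, 6 H3.3-type lines with 3 H3.1/H3.2-type ones, together with the interaction of type and state. Fold changes on this scale understate the change of genes near or below 1 FPKM. Isozyme ratios were tested by exact sign-flip permutation over lines, paired by line. The methods name no test for mRNA-Seq, so the fit without a block was the main one. The pairing comes from the cell line: libraries of a line deviated together from the means of their states in 10 of 10 lines (r = 0.27 to 0.88 over genes). The genes and lists were chosen with earlier results of these data known.

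Of each list of related genes, the text names up to 3 called genes with the largest change in each direction and those that are isozymes of one another. Gapdh, Pgk1, Gm5506, Slc2a4 and the genes set beside shared sequence were chosen after their values were seen. For similarity, the 3 genes with the highest r are named, except that 1 close to Pgam2 is not reported here. Words of 31 bases from the transcript with the longest coding sequence of each gene (GENCODE vM1) were searched on both strands of the mm9 genome outside the gene's own locus. Coding sequences were aligned globally. Promoter windows and motif counts are from RefSeq on GRCm38.p6, whose coordinates differ from mm9. Alternatives covered the pseudocount (0.1 and 0.01), the filter (none, or 5 FPKM), upper quartile scaling, quantile normalization, the limma settings, a difference of at least 1, the block, and leaving out each line including WT (between H3 types, H3.1, H3.2 and H3t only). The software was numba 0.67.0, pandas 2.3.3, numpy 2.4.6 and matplotlib 3.10.9 under Python 3.11.15.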

Additional observations from a re-analysis of the deposited data

Results flagged for a closer look

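In growth and in differentiated cells, the WT library lay far from the other 9 for the widely expressed isozymes Eno1 and Pgam1, with a gap between the lowest value and the next that exceeded Dixon's 95% limit for 10 values on the log2(FPKM + 1) scale. Eno1 had 10.1 FPKM in WT growth cells, with the next value 81.1 in H3mm7, and 7.69 FPKM in WT differentiated cells, with the next value 87.0 in H3t. Pgam1 had 19.3 FPKM in WT growth cells, with the next value 476 in H3.3, and 11 FPKM in WT differentiated cells, with the next value 160 in H3mm16. Chance alone marks about 1 in 20 groups, and 18 groups of libraries were looked at, of which these 4 were marked. The lowest value was that of WT in all 4, from its growth library in 2 and its differentiated library in 2. The part of reads with several places in the genome in these values was not tested.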

How the results depend on the processing

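Pgam2, Pfkm, Pygm and Pygb kept their direction and an adjusted p below 0.05 (limma) under all alternatives of the pseudocount, filter, scaling, limma settings, replicate block and left-out line, at 3.1 to 4.26, 1.21 to 1.55, 3.52 to 6.84 and -0.95 to -0.84. Pygm passed the filters of 1 and 5 FPKM, and Pgam2 that of 5 FPKM, only through the differentiated libraries. Their p-values under those filters are therefore no support for a rise. Pygb, at -0.88, does not reach a difference of 1. Requiring that difference left 972 genes higher and 921 lower of 3336 and 3083, and leaving out each line gave 3085 to 3500 and 2845 to 3244. With the replicate block 4058 genes were higher and 3644 lower, and Pgam1 alone of the 10 isozyme genes changed its call. Eno1 stayed uncalled. Its sign turned without H3mm7 (-0.0032, leaving out each line giving up to 0.15) and with Gm5506 added (-0.60, with the block too, and -0.65 without WT).

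Between H3 types, 27 genes were called in growth, and 56 with a pseudocount of 0.1, 16 at a mean of 5 FPKM and 2 to 9 when H3.1, H3.2 or H3t was left out (the H3.3-type lines were not). In differentiated cells 273 were called, 149 at 5 FPKM, and 8 without H3.1, 27 without H3t and 772 without H3.2. The interaction had 0, with 1 at 5 FPKM, 3 with the replicate block and up to 2 without H3.2. Among uncalled type differences the sign turned for Pygm in growth (-0.018 with a pseudocount of 0.1, -0.00012 with upper quartile scaling, -0.028 to 0.017 leaving out one of these 3 lines), for Eno1 (-0.61 to 0.19 in growth, -0.33 to 0.59 in differentiated cells), and in differentiated cells for Pfkm (-0.23 to 0.062) and Pfkl (-0.15 to 0.67) and for the interaction of Pgam2 (-0.45 to 0.21).

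Of 246 recomputed isozyme ratios 235 kept direction and side. With Gm5506, Eno3 against Eno1 turned to -1.03 in growth (-1.19 without WT), -0.81 in differentiated cells (-1.09) and a change of 0.22 (0.10). Without WT the Eno3/Eno1 change of -0.67 passed, and leaving out lines gave -0.67 to -0.23. Pygm/Pygb in differentiated cells was -0.0098 without WT and -0.0098 to 0.44 over left-out lines, and Pfkm/Pfkl was 0.86 to 1.41. Where values moved with a left-out line, the cause was not tested. Unpaired permutation changed no call. With 1 library for each line and state and unknown read numbers, neither culture nor counting error could be measured.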
